A study of Mus musculus with 18 samples.

Results

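The Ly6 surface antigens described here were the 5 genes Ly6a, Ly6c1, Ly6c2, Ly6d and Ly6e, taken by their symbol from the expression tables of 3 bone marrow progenitor populations, which together listed 19919 genes. All 5 were listed in every table. The mice carried a floxed Trim33 allele (Trim33 fl/fl) without a Cre transgene (WT) or with Cre-ERT2 (KO), on a C57BL/6 background at 6 to 8 weeks of age. Both genotypes received 2 mg tamoxifen on 5 days and were then kept for 7 days, so the WT samples carried the floxed alleles and the drug as well. Cre-ERT2 is a Cre recombinase that tamoxifen switches on, and here it acted throughout the animal rather than in blood cells alone. Trim33 encodes a nuclear ubiquitin ligase that acts on transcription. RNA was sequenced from sorted multipotent progenitors (MPPs), from CD115- common dendritic cell progenitors (CD115- CDPs) and from common lymphoid progenitors (CLPs), with 3 WT and 3 KO libraries for each population and 18 in all.

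Ly6 proteins are small cysteine-rich domains of the uPAR family, tethered to the outer leaflet of the cell membrane by a glycosylphosphatidylinositol (GPI) anchor. In bone marrow they are best known as sorting antigens. Ly6a encodes Sca-1, used to gate stem cells and early progenitors. Ly6c1 and Ly6c2 encode the Ly6C antigens of monocytes and plasmacytoid dendritic cells (pDCs). Ly6d marks lymphoid progenitors turning to the B lineage, and the study also used Ly6D in its gate for pDC precursors. Ly6e encodes a broadly expressed, interferon-inducible antigen. In the series' account of these sorts, Sca-1 was part of the gates for MPPs and CLPs but not for CD115- CDPs, so Ly6a was read in MPPs and CLPs that had been gated on its protein. Ly6G, the product of a further member of the family, was among the antigens used to deplete mature cells before every sort.

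The 5 genes lay on 350 kb of mouse chromosome 15 in the GRCm38.p6 annotation of RefSeq, from chr15:74762056 to chr15:75112066, in the order Ly6d, Ly6e, Ly6a, Ly6c1 and Ly6c2. Ly6c1 and Ly6c2 were near copies. Their coding sequences differed at 9 of 396 bases (97.7% identical), whereas Ly6a was 83.8% identical to Ly6c1 and 83.6% to Ly6c2, and the pairs that included Ly6d or Ly6e were between 47.1% and 56.4% identical. Coding exons 1 and 3 carried all 9 differences, and coding exon 2, of 117 bases, was the same in both genes. The exons that differed are shown because a read within the coding sequence can be assigned to one of this pair only where it covers such a base. They are given 5′ to 3′ on the minus strand of GRCm38, with the differing bases in capitals, at chr15:75048442-75048511 and chr15:75045402-75045610 for Ly6c1 and at chr15:75111598-75111667 and chr15:75108543-75108751 for Ly6c2.
Ly6c1 coding exon 1: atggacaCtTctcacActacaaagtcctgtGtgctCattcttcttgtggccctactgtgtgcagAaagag
Ly6c2 coding exon 1: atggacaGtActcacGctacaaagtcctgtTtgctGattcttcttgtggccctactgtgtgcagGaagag
Ly6c1 coding exon 3: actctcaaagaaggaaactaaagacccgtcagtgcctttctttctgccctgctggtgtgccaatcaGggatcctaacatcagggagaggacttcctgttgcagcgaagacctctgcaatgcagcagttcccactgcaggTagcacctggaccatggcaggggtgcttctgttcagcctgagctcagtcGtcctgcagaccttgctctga
Ly6c2 coding exon 3: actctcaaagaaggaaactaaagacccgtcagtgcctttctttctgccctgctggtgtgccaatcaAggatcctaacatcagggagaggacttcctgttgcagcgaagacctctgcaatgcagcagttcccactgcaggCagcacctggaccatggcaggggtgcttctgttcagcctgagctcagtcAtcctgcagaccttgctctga
The reads were 50 bases long and were sequenced from one end. Of the 50-base windows of the longest Ly6c1 transcript, 36.7% also occurred in another gene, most of them in Ly6c2, and for Ly6c2 the share was 33.0%. The share was 10.0% for Ly6a and 0 for Ly6d and Ly6e. How the shared reads were divided between Ly6c1 and Ly6c2 was set by the authors' estimation, so their sum is given beside each gene.

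Both Ly6c genes had lower values in KO CLPs, so the 150 bases upstream of each gene are shown as well, from RefSeq on GRCm38.p6, 5′ to 3′ on the minus strand, at chr15:75048921-75049070 for Ly6c1 and chr15:75112067-75112216 for Ly6c2.
Ly6c1 upstream: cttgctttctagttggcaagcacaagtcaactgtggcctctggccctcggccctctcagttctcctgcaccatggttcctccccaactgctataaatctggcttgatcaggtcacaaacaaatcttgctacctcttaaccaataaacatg
Ly6c2 upstream: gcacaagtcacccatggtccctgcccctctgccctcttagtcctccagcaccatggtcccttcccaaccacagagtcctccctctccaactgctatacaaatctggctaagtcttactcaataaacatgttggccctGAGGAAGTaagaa
The capitals mark the letters GAGGAAGT, the form recognised by the ETS factor PU.1. The 300-base RefSeq promoter windows of both genes were searched on both strands for this motif, for the ETS-IRF composite element, for the interferon-stimulated response element and for TTCNNNGAA, the form of STAT elements. Each of the 2 overlapping Ly6c2 windows held GAGGAAGT 2 times. Of the 2 Ly6c1 windows, the one at the more upstream start held none and the other held 1. Of all 32851 promoter windows, 3.2% held this motif. None of the other 3 motifs was found in the windows of either gene, against 2.72%, 3.44% and 8.3% of all windows. The motifs were not matched to any measurement of binding.

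Values are fragments per kilobase of transcript scaled to sequencing depth (FPKM), which can be compared between genes. From the spacing of low FPKM values, each library held an estimated 19.3 to 21.4 M mapped reads. Trim33 itself ranged from 8.78 to 10.42 FPKM in WT and from 4.8 to 11.66 in KO MPPs, from 8.27 to 15.23 and from 4.03 to 9.64 in CD115- CDPs, and from 7.01 to 12.36 and from 5.6 to 7.66 in CLPs, so the genotypes overlapped in all populations. Cre removes only exons 2 to 4, and a value for the whole gene does not check that excision, so WT and KO below mean the libraries labelled so. Of the sorting antigens, Il7r, the CD127 gene, ranged from 32.56 to 63.03 FPKM in CLPs and from 3.17 to 20.60 in CD115- CDPs. Csf1r, the CD115 gene, was present in the CD115- CDPs, at 39.11 to 136.77 FPKM in WT and 9.24 to 37.18 in KO. The CD115- CDP libraries numbered 3 stood apart in both genotypes. The summed level of 15 neutrophil genes was 4717 and 4529 FPKM in them and 712.5 to 1097 in the other 4. The summed level of 15 monocyte genes was 2045 FPKM in WT 3 and 316.7 to 474.4 in all others. Some monocyte genes were high in KO 3 as well, such as F13a1, at 57.11 FPKM against 6.70 and 4.72 in KO 1 and KO 2. Others were not, and Klf4 was low in KO 3, at 38.14 against 149.34 and 143.99 FPKM. In MPPs, KO 3 stood apart from the other KO libraries, and without it the genes called lower rose from 163 to 548. Its Trim33 value was 4.8 FPKM, against 9.71 in KO 1 and 11.66 in KO 2.

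By mean FPKM, Ly6e was the most highly expressed of the 5 genes in every group other than WT CLPs, where Ly6d was, and Ly6c1 was the lowest in every group. Among the WT libraries, Ly6d differed most between populations. It averaged 13.94 ± 1.28 FPKM in MPPs (SD, n = 3), 287.9 ± 149 in CD115- CDPs and 935.2 ± 222 in CLPs, and the 3 ranges did not overlap, so that the CLP mean was 67.1 times the MPP mean. Ly6e was lower in WT MPPs, at 475.09 to 523.87 FPKM, than in CD115- CDPs or CLPs, whose ranges of 593.36 to 1076.04 and 771.72 to 959.91 overlapped. Ly6a was instead highest in WT MPPs, at 59.28 to 76.42 FPKM, and its ranges in CLPs (25.60 to 42.93) and CD115- CDPs (10.06 to 43.09) overlapped. Ly6c2 was lower in WT MPPs, at 78.26 to 87.02 FPKM, than in CLPs, at 137.23 to 173.70, and its CD115- CDP range of 63.46 to 709.22 covered both. Ly6c1 also was lower in WT MPPs (1.95 to 3.49) than in CLPs (5.15 to 6.65), with CD115- CDPs between 1.84 and 21.42. The tables of the populations were made separately, so these levels were not tested against each other.

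In KO libraries the order of Ly6c2 by mean differed from WT, with MPPs first instead of last. MPPs were at 46.27 ± 12.2 FPKM (SD, n = 3), CD115- CDPs at 34.42 ± 37.2 and CLPs at 6.92 ± 3.40. The MPP and CD115- CDP ranges overlapped, and the CLP range of 3.37 to 10.15 lay below both. Rescaled to 1 total over the 18169 genes that all tables share, the CD115- CDP and CLP ranges overlapped. Ly6d kept its order in KO, with CLPs 17.9 times MPPs by mean.

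**Figure D1:**
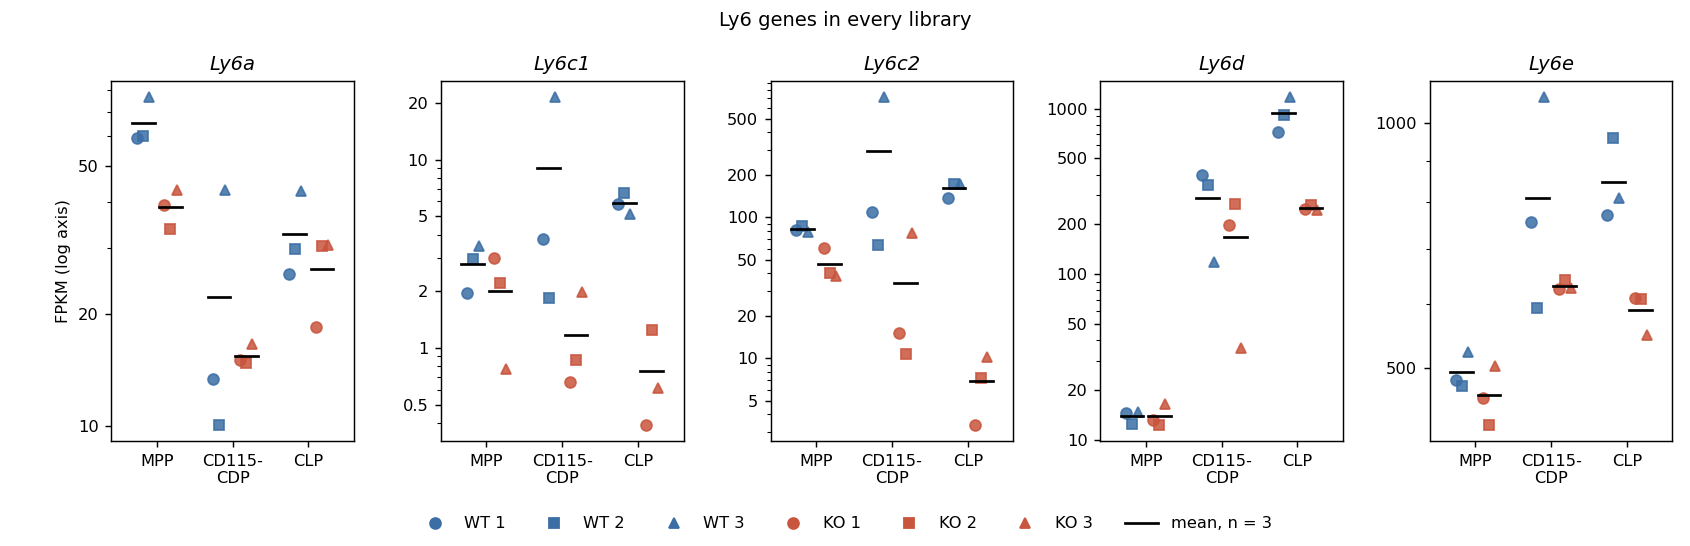
FPKM of the 5 Ly6 genes in every library, on a log axis for each gene, by population (WT blue, KO red, marker shape for the replicate number, bar for the mean of 3). In CLPs all KO values of Ly6c1, Ly6c2, Ly6d and Ly6e lie below all WT values, while in CD115- CDPs the ranges of all 5 genes overlap.

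The difference between KO and WT was tested within each population, by limma's moderated test on log2(FPKM + 1) over all genes tested, with p-values adjusted by Benjamini-Hochberg. Only the KO mice carried Cre, so the loss of Trim33 and Cre activity itself cannot be told apart. A gene was called where the adjusted p was no higher than 0.05 and the log2 difference (KO minus WT) was 1 or more in size. Folds on this scale understate changes of low genes such as Ly6c1. The p-values measure the spread between 3 samples that the study describes as biological repeats. In CLPs, 3 of the 5 genes were called lower, Ly6c2, Ly6c1 and Ly6d, where 2.84% of the 12339 genes tested were called lower. All KO values lay below all WT values for 4 of the 5, which held for 18.6% of the genes tested. The same held for none of the 5 in CD115- CDPs, where it held for 10.6% of genes, and for 2 of the 5, Ly6a and Ly6c2, in MPPs, where it held for 23.3%. In CD115- CDPs none of the 5 was called (0.0654% of 12229 genes were called lower), and with the replicate number as a block 2 were, Ly6c2 and Ly6d, against 1.46% of genes. In MPPs none was called, against 1.32% of 12372 genes. In MPPs the 5 genes had a median log2 difference of -0.40, against -0.11 for all genes tested. The median was -1.02 against -0.07 in CD115- CDPs, and -1.87 against 0.01 in CLPs. No member was called higher, a call made for 0.162% of the MPP genes, 0.0409% of the CD115- CDP genes and 0.673% of the CLP genes. In bulk RNA, fewer cells that express a gene and less of its RNA per cell cannot be told apart.

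Ly6c2, a Ly6C gene of monocytes and pDCs, had the largest log2 difference of the 5 genes in each population. In CLPs it was at 137.23, 171.58 and 173.70 FPKM in the WT libraries and at 3.37, 7.23 and 10.15 FPKM in the KO libraries. The lowest WT value was above the highest KO value by a wide margin, and the WT mean was 23.2 times the KO mean. The log2 difference was -4.45 ± 0.30 (SE, limma adjusted p = 3.5e-05), the 5th largest fall of the 12339 genes tested. Ly6c1 fell in CLPs as well, from 5.79, 6.65 and 5.15 FPKM in WT to 0.39, 1.25 and 0.61 FPKM in KO. These KO values stood for an estimated 6, 20 and 9 reads. Its log2 difference was -2.0 ± 0.19 (limma adjusted p = 0.00027). The sum of Ly6c1 and Ly6c2, which depends little on how the reads shared by this pair were divided, was 143.02 to 178.85 FPKM in WT and 3.76 to 10.76 FPKM in KO CLPs, a log2 difference of -4.36 ± 0.29 (limma adjusted p = 3.7e-05).

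In CD115- CDPs the Ly6c2 values of the WT libraries numbered 1 to 3 were 109.65, 63.46 and 709.22 FPKM, and those of the KO libraries were 15.14, 10.80 and 77.33 FPKM. The groups overlapped because KO 3 exceeded WT 2. Within each replicate number WT was higher, by 7.24, 5.88 and 9.17 times. The log2 difference of -2.80 had an SE of 1.06 without the block and 0.15 with it, and the limma adjusted p was 0.44 and 0.00082. Without both libraries numbered 3, an alternative chosen after the data were seen, it was -2.61 ± 0.25 and was called without a block (adjusted p = 0.0016). The sum of both genes followed Ly6c2, with a log2 difference of -2.78 (adjusted p = 0.44, and 0.00091 with the block). Ly6c1 was at 3.79, 1.84 and 21.42 FPKM in WT and 0.66, 0.86 and 1.97 FPKM in KO CD115- CDPs, also lower in KO within each number, and was not called (log2 difference -1.69 ± 0.74, adjusted p = 0.49, and 0.051 with the block). WT 3 was the highest library for Ly6c1, Ly6c2, Ly6a and Ly6e, and was the one with a monocyte gene sum of 2045 FPKM. The part of that library's other RNA in these values was not tested.

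In MPPs Ly6c2 was at 80.66, 87.02 and 78.26 FPKM in WT and at 60.33, 40.10 and 38.39 FPKM in KO. All KO values lay below all WT values, but the log2 difference of -0.84 ± 0.18 did not pass (limma adjusted p = 0.055). It was called only without KO 1, at -1.04 (adjusted p = 0.016). Ly6c1 overlapped between the genotypes in MPPs, from 1.95 to 3.49 FPKM in WT and from 0.77 to 3.0 FPKM in KO (log2 difference -0.40 ± 0.32, adjusted p = 0.44).

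Ly6c1 made up a small part of the sum. Its share ranged from 2.36% to 4.27% over the 9 WT libraries, from 1.97% to 5.25% in KO MPPs, from 2.48% to 7.38% in KO CD115- CDPs and from 5.67% to 14.7% in KO CLPs. The KO CLP shares lay above those of all WT libraries. They rest on the few Ly6c1 reads given above and on the division of shared reads, and were not tested.

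**Figure D2:**
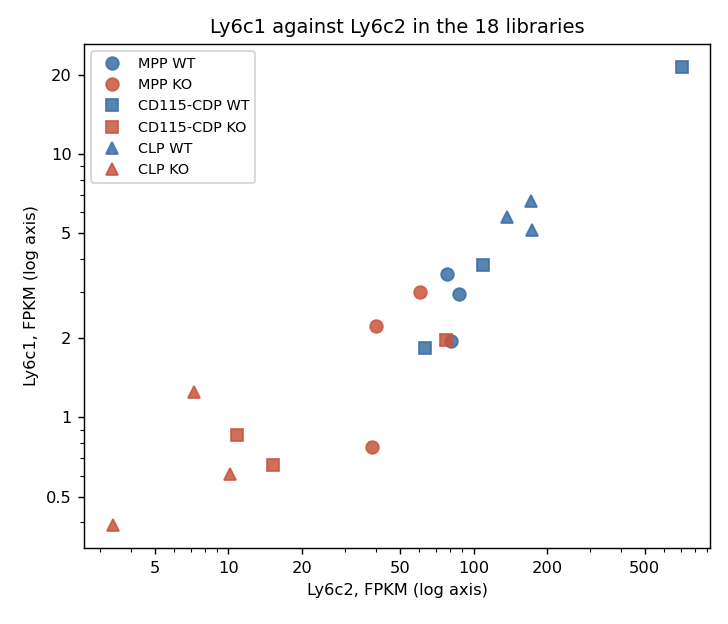
Ly6c1 against Ly6c2 FPKM in the 18 libraries, both on log axes (WT blue, KO red, marker shape for the population). The 3 KO CLP libraries lie at the low end of Ly6c2, at 3.37 to 10.15 FPKM, and CD115- CDP WT 3 lies alone at the top, at 709.22 and 21.42 FPKM.

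Ly6d, an antigen of B-lineage lymphoid progenitors and of the study's gate for pDC precursors, fell in CLPs. It was at 725.08, 912.69 and 1167.82 FPKM in WT and at 246.88, 260.23 and 245.57 FPKM in KO. The KO values were close to each other and were 26.8% of the WT mean. The log2 difference was -1.87 ± 0.17 (limma adjusted p = 0.0002). The CD115- CDP values of Ly6d were 398.20, 347.55 and 117.91 FPKM in WT and 199.58, 266.29 and 35.87 FPKM in KO. The groups overlapped, the libraries numbered 3 were the lowest of each genotype, and WT was higher within each number by 2.0, 1.31 and 3.29 times. The log2 difference of -1.02 was not called without the block (SE 0.83, limma adjusted p = 0.73) and was at the edge of the call with it (SE 0.23, adjusted p = 0.045). Without both libraries numbered 3 it was -0.69 and was not called (adjusted p = 0.071), and without KO 3 alone it was -0.14. In MPPs the Ly6d level was low, at 12.48 to 14.83 FPKM in WT and 12.35 to 16.59 FPKM in KO, and the log2 difference was 0.00 ± 0.14 (adjusted p = 0.99).

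Ly6a, the Sca-1 gene, was lower in KO MPPs. Its values were 59.28, 60.23 and 76.42 FPKM in WT and 39.34, 33.93 and 43.14 FPKM in KO, without overlap. The log2 difference of -0.73 ± 0.14 passed the adjusted p (limma, 0.042), as 3.52% of genes did in this direction, but not the fold that a call required. Leaving out any library other than KO 3 raised the adjusted p to between 0.12 and 0.17. Kit, the CD117 gene of the same gate and named here for that reason, was also below the WT range in all KO MPPs, at 29.92 to 49.88 against 71.63 to 74.80 FPKM, and was not called (log2 difference -0.94). The other genes of that gate overlapped between the genotypes, Flt3 at 264.09 to 271.68 FPKM in WT and 224.68 to 294.55 FPKM in KO, and Cd34 at 440.86 to 496.53 FPKM in WT and 346.61 to 453.32 FPKM in KO. In CD115- CDPs Ly6a was at 13.37, 10.06 and 43.09 FPKM in WT and at 15.01, 14.73 and 16.57 FPKM in KO. KO lay within the WT range, and the sign of the difference depended on WT 3, with -0.22 ± 0.50 over all libraries and 0.38 ± 0.20 without it (limma adjusted p = 0.92 and 0.49). In CLPs Ly6a was at 25.60, 29.91 and 42.93 FPKM in WT and at 18.43, 30.48 and 30.55 FPKM in KO, which overlapped (log2 difference -0.30 ± 0.23, adjusted p = 0.43).

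Ly6e, the broadly expressed member, was not called in any population. In CLPs it was at 771.72, 959.91 and 810.26 FPKM in WT and at 610.00, 607.45 and 549.95 FPKM in KO. The ranges did not overlap, and the log2 difference of -0.52 ± 0.13 passed the adjusted p (limma, 0.028), as 8.92% of genes did in this direction, but not the fold. With no filter on low genes the adjusted p was 0.068, and leaving out 1 library gave 0.015 to 0.12. In CD115- CDPs it was at 755.70, 593.36 and 1076.04 FPKM in WT and 625.74, 641.13 and 627.58 FPKM in KO, with KO inside the WT range (log2 difference -0.31 ± 0.21, adjusted p = 0.66). In MPPs it was at 475.09 to 523.87 FPKM in WT and 426.01 to 503.23 FPKM in KO, which overlapped (log2 difference -0.10 ± 0.09, adjusted p = 0.49).

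**Figure D3:**
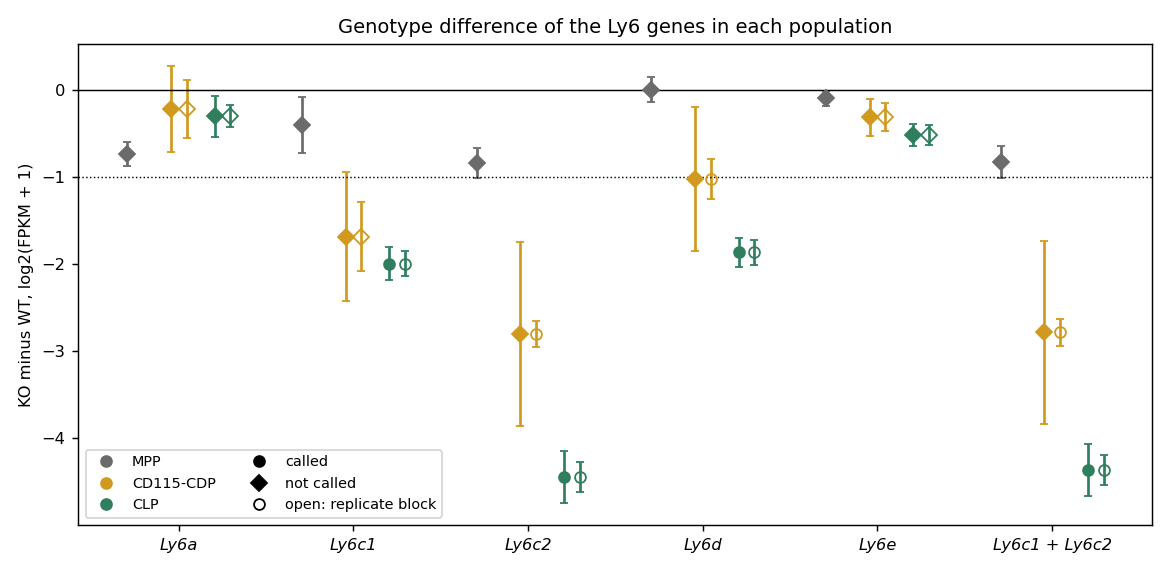
Difference between KO and WT in log2(FPKM + 1), with its SE, for the 5 genes and for the sum of Ly6c1 and Ly6c2 in each population (filled, fit without a block; open, replicate block in CD115- CDPs and CLPs; circles called, diamonds not called; n = 3 for each genotype). Ly6c2 is at -4.45 in CLPs, -2.80 in CD115- CDPs and -0.84 in MPPs, and the block shortens the SE of its CD115- CDP value from 1.06 to 0.15.

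**Figure D4:**
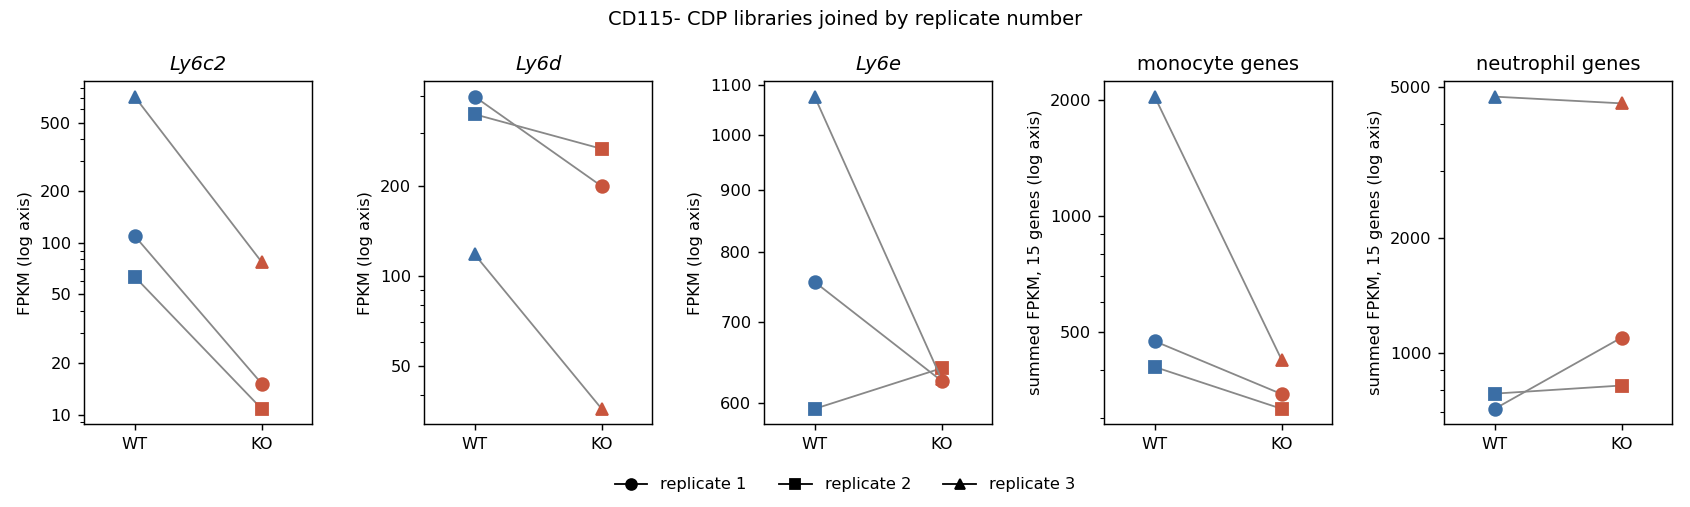
CD115- CDP libraries joined by replicate number, for Ly6c2, Ly6d and Ly6e (FPKM, log axes) and for the summed FPKM of 15 monocyte and 15 neutrophil genes. Every line of Ly6c2 and Ly6d goes down from WT to KO, and the neutrophil sum is high in both libraries numbered 3, at 4717 and 4529 FPKM.

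Whether the genotype difference depended on the population was tested over all 18 libraries, with an F test of the interaction. None of the 5 genes passed without a block, where 2.45% of 12421 genes did, and the limma adjusted p was 0.17 for Ly6c2 and 0.40 for Ly6d. With the replicate number as a block in CD115- CDPs and CLPs, Ly6c2 (adjusted p = 7.2e-05) and Ly6d (adjusted p = 0.0094) passed, against 5.93% of genes. Same-numbered CLP libraries deviated together only weakly (r = 0.40, 0.33 and 0.13). The values in MPPs, which were left without the block, were 0.04, 0.48 and 0.47. That block was chosen after the data were seen. The Ly6c2 difference was then 3.61 ± 0.29 lower on the log2 scale in CLPs than in MPPs (written as CLP minus MPP, -3.61), and 1.65 ± 0.29 lower in CLPs than in CD115- CDPs (-1.65). For Ly6d the CLP minus MPP term was -1.87 ± 0.29. The sum of Ly6c1 and Ly6c2 also passed (adjusted p = 0.000102), and Ly6c1 alone (0.15), Ly6e (0.29) and Ly6a (0.52) did not.

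Between Ly6d and Ly6c2 on the chromosome, 7 other genes of the tables were found. None was called in a population where it was tested. Of all genes tested, between 0.0654% and 2.84% were called lower in a population. Ly6k, a further Ly6 gene, was at 4.2 to 9.59 FPKM in WT and 2.21 to 5.75 FPKM in KO CLPs (limma adjusted p = 0.11), and was at 5.06 FPKM or less in the other populations. Ly6i, which lies next to Ly6a, was at 1.26 to 2.32 FPKM in WT and 0.51 to 1.04 FPKM in KO MPPs (adjusted p = 0.096), and reached 5.61 FPKM in CD115- CDP WT 3, against 0.99 FPKM or less in the other libraries of that population. In CLPs Ly6i was too low to be tested, at 0.46, 1.36 and 0.5 FPKM in WT and 0.19, 0.13 and 0 FPKM in KO. 2010109I03Rik was at 0.81 FPKM or less in every library, and D730001G18Rik, Gml2, Cyp11b1 and Cyp11b2 were too low to be tested.

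Genes just outside this segment were not searched by position, so Ly6g and Lynx1, both called below, are given without a position. On the list of other Ly6/uPAR family genes, which holds Ly6k and Ly6i too, 1 of 9 tested was called in MPPs and 1 of 8 in CLPs. Both were lower in KO, a call made for 1.32% of all MPP genes and 2.84% of all CLP genes. None of 8 was called in CD115- CDPs, where 0.0654% of all genes were called lower. Ly6g, the neutrophil antigen that the sorts depleted, was at 9.45, 9.27 and 10.59 FPKM in WT and 2.62, 1.58 and 2.90 FPKM in KO MPPs (log2 difference -1.70 ± 0.18, limma adjusted p = 0.0078). In the same MPP libraries 4 of 15 neutrophil genes were called lower, against 1.32% of all genes. In CD115- CDPs Ly6g was at 9.92 FPKM in WT 3 and 3.47 in KO 3, and at 1.15 or less in the other 4. Lynx1, which encodes a modulator of nicotinic acetylcholine receptors, was at 14.48, 16.12 and 16.94 FPKM in WT and 3.31, 3.64 and 3.09 FPKM in KO CLPs (log2 difference -1.95 ± 0.12, adjusted p = 1.7e-05).

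The members share the GPI anchor, and none of the 25 tested genes that build or attach it was called in any population. Their median log2 difference lay between -0.11 in MPPs and 0.04 in CD115- CDPs, with 0.02 for CLPs. Of 32 interferon-stimulated genes, 6 were called lower in CLPs, where the falls of Ly6c2, Ly6c1 and Ly6d were found, among them Bst2, also on the pDC list below (-2.64, limma adjusted p = 3.1e-06) and Ifi27l2a (-2.33, adjusted p = 9.8e-06). The median of the 32 was 0.04 in CLPs, where 2.84% of all genes were called lower. In MPPs 3 were called lower, against 1.32% of all genes, with a median of -0.63. All KO values lay below all WT values for 25 of 32, where 23.3% of all genes tested did so. In CD115- CDPs none was called without the block, where 0.0654% of all genes were called lower and 0.0409% higher. With the block, Bst2 and Ifi27l2a were called lower, against 1.46% of all genes, and Cxcl10 higher, against 0.376%.

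The marker lists of the cell types in which these antigens are known moved in different ways in CLPs. Of all genes tested there, 2.84% were called lower and 0.673% higher. Of 15 pDC genes 13 were called lower, among them Spib (-5.20), Cd300c (-4.52), Siglech (-4.11) and Pacsin1 (-3.57), and their summed level was 2990 to 3218 FPKM in WT and 935.1 to 1029 FPKM in KO. Of 13 monocyte genes tested, 6 were called lower, among them Cybb (-4.22), Ms4a6c (-2.02), Csf1r (-1.65) and Cx3cr1 (-1.15), with sums of 385.0 to 467.7 FPKM in WT and 198.8 to 357.8 FPKM in KO. The summed neutrophil level was 451.6 to 1051 FPKM in WT and 259.7 to 440.9 FPKM in KO, with none of 15 called without the block and 7 called lower with it (3.11% of all genes with the block). Of 19 B lymphoid genes none was called lower while Ly6d fell, and Rag1, of the antigen receptor recombinase, was called higher (1.67, limma adjusted p = 2.5e-05). The median log2 difference of the list was -0.29. Of its 19 genes, 3 had all KO values below all WT values, where 18.6% of all genes tested did. The B lymphoid sum was 1628 to 2366 FPKM in WT and 2429 to 3197 FPKM in KO, but Dntt, the terminal transferase gene, which was named after its values were seen, carried that difference, at 988.79 to 1134.95 FPKM in WT and 1891.31 to 2276.70 FPKM in KO. Without Dntt the sums overlapped, from 639.6 to 1232 FPKM in WT and from 537.3 to 920.7 FPKM in KO. Of the 12 erythroid and 13 T and NK cell genes, 3 of 7 tested were called lower (Hba-a1, Hbb-bs and Hba-a2) and 1 of 6 tested was called higher (Nkg7). Ly6c1 and Ly6c2, and on the pDC list Irf8, Runx2, Spib, Bst2, Siglech and Cd209a, were among the pDC signature genes of earlier work that the study picked out as lower in these same libraries, so their falls are not independent evidence of that direction. The study took genes lower in more than 1 progenitor population by its own tests on counts. Without a block, Ly6c1 and Ly6c2 were called here in CLPs only. No gene of these lists that was listed for CLPs was at 0 in all CLP libraries. Genes not listed could not be checked. For CLPs 18378 genes were listed, against 19710 for each other population. Of the 13 T and NK cell genes, 11 were listed in every population. The part of any cell type in the Ly6 values was not tested.

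In CD115- CDPs, with the block, 7 of 14 pDC genes and 8 of 15 monocyte genes were called lower beside Ly6c2 and Ly6d. The share of all genes was 1.46%. Without the block 1 pDC gene, Cd300c, was called lower (-2.74, limma adjusted p = 0.036), against 0.0654% of all genes. With the block, Dntt and Vpreb2 of the 19 B lymphoid genes were called higher, where 0.376% of all genes were. Of the erythroid genes Hba-a1 was then called lower and Hbb-bt higher, and of the T and NK cell genes Cd3g lower and Nkg7 higher. The pDC sum was 1233 to 1737 FPKM in WT and 882.0 to 993.2 FPKM in KO. In MPPs 8 of 14 monocyte genes and 9 of 12 erythroid genes were called lower, against 1.32% of all genes. The Ly6c2 difference there missed the threshold. The erythroid sum was 402.2 to 427.5 FPKM in WT and 65.42 to 85.49 FPKM in KO MPPs.

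The likeness of expression patterns was described by Pearson's r of log2(FPKM + 1) over the 18 libraries, among 12421 genes. The points share 3 populations and their gates, so r reflects population and genotype together. Ly6c1 and Ly6c2 were at r = 0.91 with each other, and at 0.93 after the mean of each population was subtracted. Ly6d was nearest to Cox6a2 (r = 0.98), a gene of the pDC list, then Fads3 (0.97) and Blk (0.96), a B-lineage kinase. Ly6c2 was nearest to Tmem9b (0.95), S100a6 (0.95) and Cyp27a1 (0.94), and Ly6c1 to Lilra6 (0.94), B3gnt8 (0.93) and Zfp516 (0.93). Ly6e was nearest to Unc93b1 (0.95), which carries nucleic acid-sensing Toll-like receptors to endosomes, Tmem109 (0.95) and Necap2 (0.94). Ly6a was nearest to Ube2l6 (0.95), the conjugating enzyme of ISG15, Tnfaip8 (0.95) and Apobec1 (0.92). After the population means were subtracted, the nearest were Nrp1, Anxa5 and Cfp for Ly6c2 (each 0.98), Anxa5 (0.96), Hpcal1 (0.95) and S100a11 (0.95) for Ly6c1, Fam83d (0.97), Carhsp1 (0.93) and Pea15a (0.92) for Ly6d, Tmem109 (0.96), S100a6 (0.94) and Napsa (0.94) for Ly6e, and Tmem106a, Tnfaip8 and AB124611 for Ly6a (each 0.91). Ly6a and Ly6d ran opposite to each other over the libraries, at r = -0.54, and were at -0.09 within populations.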

How the data were processed

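RNA of 18 sorted progenitor libraries (3 WT and 3 KO in each of 3 populations) was sequenced by the study as single 50-base reads after poly-A selection. The authors aligned reads to transcripts with Bowtie2 2.2.5 and estimated expression with RSEM 1.2.12, and the deposited values are FPKM per gene, in 1 table for each population; HISAT2 2.0.4 and mm10 were used for genome alignments. The study's own differential tests need counts and were not repeated. The protocols describe no strand marking, so overlapping antisense transcripts cannot be told apart.

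Genes whose mean reached 0.5 FPKM were tested with limma 3.58.1 (R 4.3.3; lmFit, eBayes with trend) on log2(FPKM + 1), and p-values were adjusted by Benjamini-Hochberg over all genes tested. An exact permutation of 3 against 3 libraries cannot go below p = 0.1. By their numbers in the sample titles, same-numbered WT and KO libraries deviated together with r = 0.44, 0.67 and 0.79 in CD115- CDPs. The values were 0.40, 0.33 and 0.13 in CLPs and 0.04, 0.48 and 0.47 in MPPs. Some differently numbered libraries were as close. In CD115- CDPs WT 1 and KO 2 were at 0.38 and WT 2 and KO 1 at 0.66. In CLPs WT 3 was nearer to KO 2 (0.23) than to KO 3. Scripts were tested on simulated data. The Ly6 genes and the marker lists were chosen with earlier results of these data known. Named were the 5 members, up to 4 called genes of each list by size, genes between the members on the chromosome, and the 3 nearest genes by correlation. Outside this rule, Trim33 and genes of the sort gates (Il7r, Csf1r, Kit, Flt3, Cd34) were named to check the samples. Dntt, Plaur, F13a1 and Klf4 were named after their values were seen. List genes called with the block in CD115- CDPs were named as well for the B lymphoid, interferon-stimulated, erythroid and T and NK cell lists. For the pDC and monocyte lists they were given as counts. Sequence and positions came from GENCODE vM21 and RefSeq (Biopython 1.88). RefSeq promoter windows matched 2 of the 5 members.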

Additional observations from a re-analysis of the deposited data

How the results depend on the processing

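The falls of Ly6c2, Ly6c1 and Ly6d in CLPs were called under every alternative run, over a pseudocount of 0.1, no filter, rescaling to TPM, median ratio scaling, the replicate block and each library left out. Leaving out 1 library gave -4.75 to -4.07 for Ly6c2, -2.19 to -1.84 for Ly6c1, -2.04 to -1.69 for Ly6d and -4.63 to -3.98 for the Ly6c sum in CLPs. In CD115- CDPs the replicate block made calls of Ly6c2 (-2.80), the sum (-2.78) and Ly6d (-1.02). Without both libraries numbered 3, Ly6c2 (-2.61) and the sum (-2.58) were called with or without the block and Ly6d was not. Leaving out 1 library there gave -3.64 to -1.78 for Ly6c2 and -3.60 to -1.76 for the sum, -2.31 to -0.82 for Ly6c1 and -1.57 to -0.14 for Ly6d, none called, and -0.62 to 0.38 for Ly6a, which was positive without WT 3 and at 0.33 without both libraries numbered 3, with or without the block. In MPPs the range was -1.04 to -0.72 for Ly6c2 and -1.04 to -0.70 for the sum, both called only without KO 1, and -0.12 to 0.083 for Ly6d. Of the MPP values near 0, Ly6d turned to -0.015 when rescaled to TPM and Ly6e to 0.025 under median ratio scaling. The replicate block changed no member's call in MPPs or CLPs. Interaction adjusted p-values under the full replicate block were 0.00018 for Ly6c2, 0.00021 for the sum and 0.0101 for Ly6d, and under the block in CD115- CDPs and CLPs 7.2e-05, 0.000102 and 0.0094. Leaving out 1 library gave 0.027 to 0.33 for Ly6c2 and 0.027 to 0.34 for the sum, below the threshold only without CD115- CDP WT 3. The level of Ly6e in KO, as log2 of CD115- CDPs over MPPs, moved from 0.45 to 0.36 when rescaled over shared genes, and CLPs then came first by mean.

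Counts over all genes moved more. In MPPs 163 genes were called lower, 245 with a pseudocount of 0.1, 266 when rescaled to TPM and 43 to 548 with 1 library left out, and 20 were called higher (11 to 368 with 1 left out). In CD115- CDPs 8 were called lower, 1 with no filter, 178 with the block, 156 without both libraries numbered 3 (188 with the block) and 0 to 5 with 1 left out, and 5 were called higher (2, 46, 67, 78 and 0 to 7). In CLPs 83 were called higher, and 148 with a pseudocount of 0.1. The interaction count of 304 became 545 with no filter, 189 with a pseudocount of 0.1, 1077 with the full block, 737 with the partial block and 154 to 667 with 1 left out. Median ratio scaling moved the median of all genes by 0.10 in MPPs, and TPM by -0.12 in CD115- CDPs. The causes were not tested. The main limits are 3 libraries per group, the 50-base reads shared by Ly6c1 and Ly6c2, the few Ly6c1 reads in KO CLPs, and values without counts.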

Other observations

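Plaur, the urokinase receptor of the Ly6/uPAR family, was chosen after its values were seen. It was at 36.36, 50.59 and 20.02 FPKM in WT and 138.13, 142.30 and 12.48 FPKM in KO MPPs, so KO 1 and KO 2 were above all WT libraries and KO 3 was below them (log2 difference 0.91, limma adjusted p = 0.53). Its CD115- CDP values were 91.44, 158.25 and 16.65 FPKM in WT and 108.65, 143.77 and 11.74 FPKM in KO, with the libraries numbered 3 lowest in both genotypes. In CLPs it was at 19.63 to 26.57 FPKM in WT and 10.37 to 20.43 FPKM in KO.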
